A study of Homo sapiens with 4 samples.

Results

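Band 19p13.3 is the short-arm end of chromosome 19, and 1289 of the 115384 ELF5 peaks deposited for T47D cells had their summits in it. The members were taken by position: every peak of the list with a summit in the first 6900 kb of chromosome 19 on hg19, which is the whole of the band. T47D is a human breast epithelial line of the luminal A type. It was grown without treatment in RPMI with serum and insulin, and ELF5 was immunoprecipitated in 3 replicates with the antibody listed as sc-376737, beside 1 input sample. The antibody is known from the sample labels alone, since the protocol lists those of other factors in other cells. All values come from 1 peak list that does not separate the replicates, and its track name leaves unclear whether it rests on replicates 1 to 3 or on 1 and 3. No replicate error could therefore be attached to them, and no difference between regions was tested.

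ELF5 belongs to the ETS family of transcription factors, whose DNA-binding domain recognises a GGAA core, and in the breast it is known for driving luminal progenitors toward the milk-secreting alveolar fate. In ChIP-seq, DNA bound by a factor in fixed chromatin is enriched by an antibody and sequenced, and a peak is a stretch where the fragments pile up above the local background. Most peaks of a sequence-specific factor are narrow, and a peak spanning several kilobases may cover more than 1 point of enrichment. Band 19p13.3 stains lightly with Giemsa and is among the most gene-dense parts of the human genome. Its genes are known to include STK11, which encodes a tumour-suppressor kinase, TCF3, which encodes an E-protein transcription factor, and RPS15, which encodes a ribosomal protein. Which genes the peaks lie at was not analysed here, because no annotation or sequence of hg19 was used. For the same reason no peak sequence is shown. Positions are on hg19 and counted from 1.

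Most peaks listed in 19p13.3 were weak, as in the whole list, and strong peaks were scattered unevenly among them. The median fold over local background was 4.02, with an interquartile range from 3.34 to 7.07, and the fold of each peak is the authors'. In the list the median was lower, at 3.66, with an interquartile range from 2.98 to 5.50. Of the 1289 peaks, 816 had a fold under 5 and 167 of these a fold under 3. Folds under 3 made up 12.96% of the band's peaks against 25.3% of the list, and folds from 3 to 5 50.3% against 46.3%. At the other end, 30 peaks had a fold over 30, and 8 of them a fold over 40. Folds from 30 to 40 made up 1.71% against 1.09% of the list, and folds over 40 0.621% against 0.365%. Strong peaks, those in the highest 10% of folds in the whole list (a fold of at least 11.99), numbered 169, which is 13.11% of the band's peaks against 10.0% of the list. The band was singled out with its density of strong peaks known, so this share is a description.

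Weak peaks rested on few fragments. The fragment pileup at the summit, recovered from the authors' fold and p, had a median of 14 in the band and ran from 7 to 171. Strong peaks had a median pileup of 69, and the others 13. The counting interval of the fold (exact Poisson 95% of the pileup, with the background held fixed) lay wholly above the strong limit for 108 of the 169 strong peaks and spanned it for 61. It also spanned it for 89 peaks below the limit. The nearest members on either side of the limit were a peak at chr19:861551-862665, with a fold of 11.994, and one at chr19:4584112-4584456, with a fold of 11.9997. Peaks with an authors' q of at least 0.05 made up 101, or 7.84%, of the members and 12.47% of the list. The largest q was 0.509 among the members and 0.583 in the list, so a place in the list does not by itself establish ELF5 binding.

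Peaks and strong peaks were more frequent toward the telomere. The first summit lay at 267343, and the first 2 windows of 100 kb held none. The telomeric side of the band's midpoint held 756 peaks, of which 107 were strong, and the centromeric side held 533, of which 62 were strong. The density of strong peaks was thus 31.0 per Mb on the telomeric side and 17.97 per Mb on the centromeric side. The share of peaks that were strong differed less, at 14.2% (exact binomial 95% interval 11.7 to 16.8) and 11.6% (9.04 to 14.7), and these intervals overlap. Median background was alike on both sides, at 2.01 and 2.03 fragments. Over 3 equal parts of the band, from the telomere, peaks per Mb went from 237 to 183 to 139.6 and strong peaks per Mb from 33.9 to 23.5 to 16.1.

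**Figure D1:**
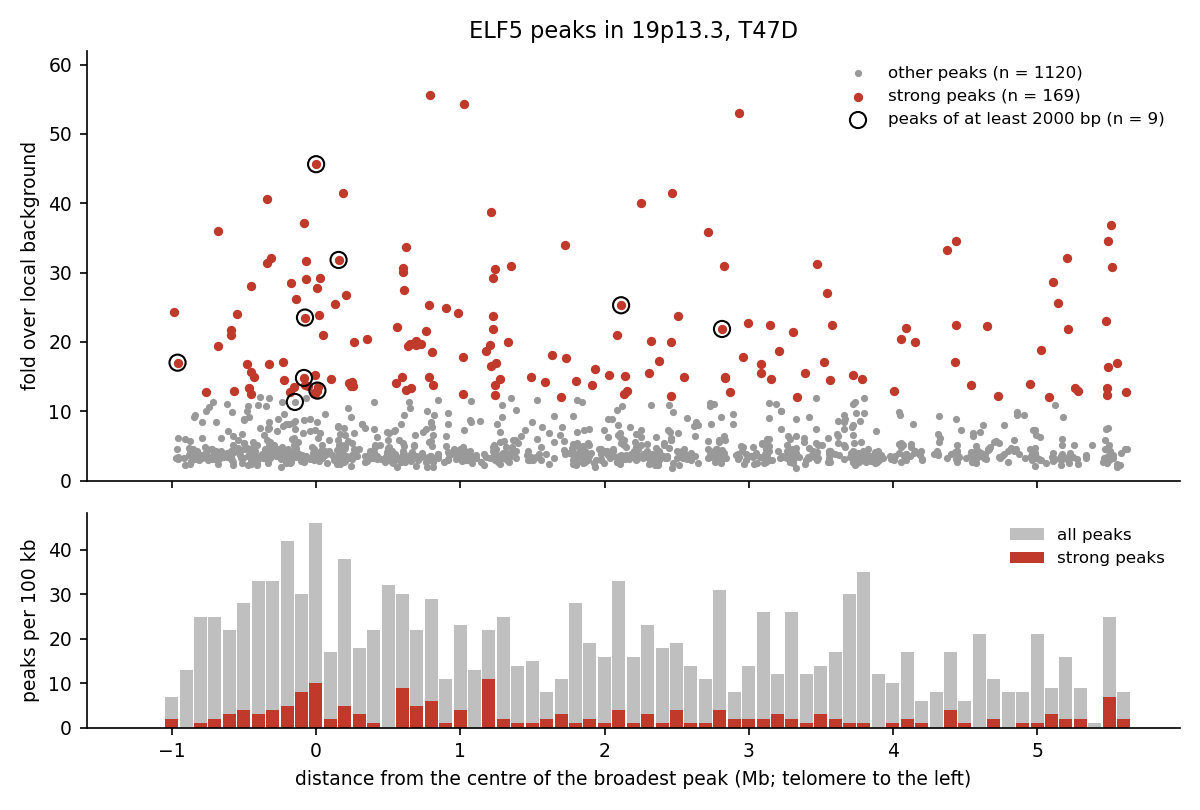
The upper panel plots the authors' fold of each of the 1289 peaks against its distance from the centre of the broadest peak, in Mb, with the 169 strong peaks in red and circles around the 9 peaks of at least 2000 bp. The lower panel gives all peaks and strong peaks in each of the 69 windows of 100 kb. Most circles lie near 0, and the windows thin out to the right, toward the centromere.

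Strong peaks were present in 59 of the 69 windows of 100 kb. Another 8 windows held peaks but no strong one, and 16 windows with at least 4 strong peaks held 94 of the 169. The window from 1200 to 1300 kb was the richest in peaks, with 46, of which 10 were strong. The window from 2400 to 2500 kb held the most strong peaks, 11 of its 22. By contrast, the window from 1700 to 1800 kb held 32 peaks and no strong one. The median fold was 8.76 in the window from 2400 to 2500 kb and 3.79 in that from 1700 to 1800 kb, while their median backgrounds were 2.16 and 2 fragments. Windows with many peaks thus did not always hold many strong ones. Across the 69 windows of this single list, Spearman's rho between the 2 counts was 0.525, a description of windows that share 1 data set and its local depth.

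The broadest peak of the whole list lay in this band, at chr19:1248171-1254015. It covered 5845 bp with a fold of 45.6 (counting interval 38.4 to 53.8) and a pileup of 140 above a background of 1.81 fragments, the lowest background in the list. That lowest value was not particular to it, as 315 of the band's peaks (24.4%) and 8.55% of the list had it. The peak was thus both the widest of the band and the fourth by fold. Its summit, at 1251515, lay 57.2% of the way along the peak, close to the middle. The next summit to the telomere was 6855 bp away, in a strong peak at chr19:1244489-1245421 with a fold of 12.45 (9.13 to 16.6). The next toward the centromere was 3436 bp away, in a weak peak at chr19:1254843-1255062 with a fold of 3.84 (2.09 to 6.60).

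The second broadest peak of the band, at chr19:4063680-4068042, covered 4363 bp and ranked 5 by width in the list. Its fold was 21.9 (17.1 to 27.5), from a pileup of 70 and a background of 1.96 fragments. The counting intervals of its fold and of that of the broadest peak did not overlap. Its summit lay at 4065795, 48.5% of the way along. The nearest summit on the telomeric side was 2317 bp away, in a peak of the smallest width, 135 bp, at chr19:4063399-4063533, with a fold of 3.34 (1.77 to 5.86). On the centromeric side there was none for 12268 bp. The list held 9 peaks of at least 4000 bp in all, and these 2 were among them.

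The surroundings of these peaks differed in the number and sides of their strong peaks. Within 25 kb of the summit of the 5845 bp peak there were 25 other peaks, of which 8 were strong, 3 on the telomeric side and 5 on the centromeric side. Within the same distance of the 4363 bp peak there were 21 others, of which 3 were strong, all on the centromeric side. The 15 peaks on its telomeric side had folds from 2.52 to 9.21 and pileups from 9 to 35, and the 6 on its centromeric side had folds from 3.94 to 31.0. The strongest of these 6, at chr19:4081500-4082549, had a fold of 31.0 (26.0 to 36.6) and so exceeded the broad peak itself, although the counting intervals overlapped. It was the first of 3 strong peaks in a row that ended at 4086755. Within 100 kb, 16 of 67 other peaks around the 5845 bp peak were strong and 5 of 44 around the 4363 bp peak. For comparison, 13.11% of all the band's peaks were strong. The stretch from 1100 to 1300 kb, which holds the 5845 bp peak, had 23.7%. The difference between the surroundings was not tested.

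**Figure D2:**
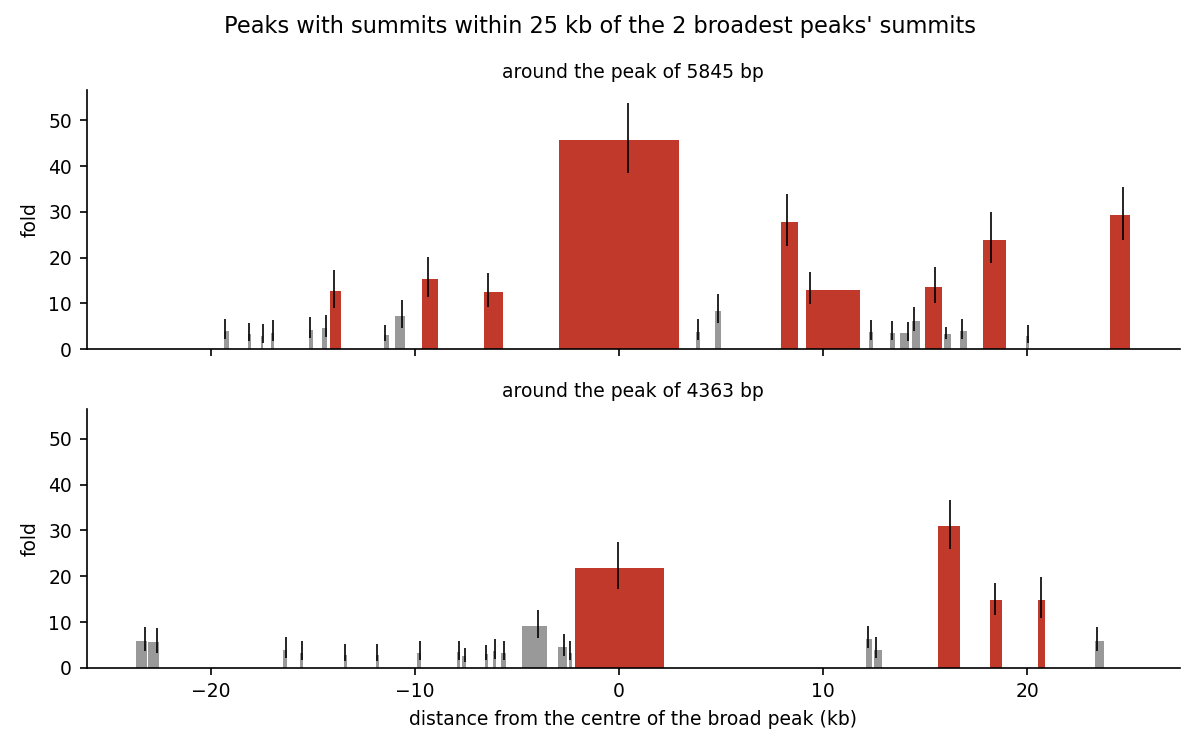
Bars show the authors' fold of each peak with a summit within 25 kb of the summit of the 5845 bp peak (upper panel) or the 4363 bp peak (lower panel), drawn at its true width against the distance from the centre of the broad peak in kb. Red bars are strong peaks and lines are the exact Poisson 95% counting intervals. Strong peaks stand on both sides in the upper panel and on the right alone in the lower panel.

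Broad peaks, those of at least 2000 bp, numbered 9 in the band, 0.698% of its peaks against 0.448% of the list. Of these 9, 6 lay between 1103589 and 1409205, a stretch of 305.6 kb that is 4.43% of the band's length and held 7.53% of its peaks and 12.4% of its strong peaks. This grouping was noticed in the data. From the telomeric end, these 6 peaks were at chr19:1103589-1105590 with a fold of 11.4, at chr19:1166198-1169325 with a fold of 14.8, at chr19:1172512-1174512 with a fold of 23.5, at chr19:1248171-1254015 as described, at chr19:1260246-1262921 with a fold of 13.0, and at chr19:1407034-1409205 with a fold of 31.8. The other broad peaks were at chr19:290125-292259 with a fold of 17.0, at chr19:3365805-3367941 with a fold of 25.3, and the 4363 bp peak. The peak at chr19:1103589-1105590 was the one broad peak that was not strong, and its counting interval, 7.97 to 15.7, included the limit.

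Broad peaks of the band differed in where their summit lay. In 3 of the 9 the summit was in the middle 50% of the peak, a smaller share than the 1035 of all 1289 peaks. In the peaks at chr19:1260246-1262921, chr19:1407034-1409205 and chr19:3365805-3367941 it lay 7.66%, 9.85% and 11.9% of the way along, close to the telomeric end. In the peak at chr19:1172512-1174512 it lay at 86.4%, close to the centromeric end. The median pileup of the 9 broad peaks was 70 over a median background of 2 fragments, against 103 over 4 for the 517 broad peaks of the list.

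The stretch from 1100 to 1300 kb, also chosen after its values were seen, joined the 2 windows of 100 kb with the most bases under peaks. It held 76 peaks, of which 18 were strong and 5 broad, and peaks covered 23.3% of its bases against 7.12% of the band. Its strong share was 23.7% (14.7 to 34.8) at a median background of 2.01 fragments, against 2.03 in the band.

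The 3 strongest peaks by fold were wider than the band's median of 253 bp but far from the widest. The first was at chr19:2041881-2042881, 1001 bp wide, with a fold of 55.7 (47.7 to 64.6), a pileup of 171 and a background of 1.81 fragments. It was followed by a peak of 668 bp at chr19:2273473-2274140 with a fold of 54.4 (46.5 to 63.2) and one of 845 bp at chr19:4182035-4182879 with a fold of 53.1 (45.3 to 61.8). The counting intervals of these 3 and of the 5845 bp peak overlapped, so their order was not resolved. In the whole list they ranked 37, 48 and 57 by fold, and the 5845 bp peak 191. The remaining members of the 10 strongest were at chr19:1438056-1439198 and chr19:3721380-3722024, both with a fold of 41.5, at chr19:912760-913912 with 40.6, at chr19:3505704-3506439 with 40.1, at chr19:2462753-2463423 with 38.7 and at chr19:1163692-1165566 with 37.1.

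Ranking by the authors' p kept 8 of these 10 peaks. It brought in a peak at chr19:6765945-6766373, with a fold of 36.9 and a pileup of 161, and one at chr19:2977153-2977759, with a fold of 33.9 and a pileup of 148. Both lay over a background of 3 fragments, which lowers the fold at a given pileup. They replaced the peaks at chr19:3505704-3506439 and chr19:1163692-1165566, which lay over 2 and 1.82 fragments.

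Wider peaks were stronger throughout the band, with exceptions in both directions. The median width was 772 bp for strong peaks and 223 bp for the others, and Spearman's rho of width with fold was 0.693 across the 1289 peaks. Width and fold both depend on the pileup, so they are not separate measures of strength. Of the 169 strong peaks, 104 were at least 400 but under 1000 bp wide, 42 at least 1000 but under 2000 bp, 8 were broad and 15 were under 400 bp. The strongest of these 15 was 272 bp wide, at chr19:5404104-5404375, with a fold of 20.05 (15.5 to 25.5). Conversely, 23 of the 73 peaks of at least 1000 bp were not strong. After the broad peak at chr19:1103589-1105590, the widest of these were one of 1571 bp at chr19:506461-508031, with a fold of 10.6 (8.06 to 13.6), and one of 1536 bp at chr19:6372391-6373926, with a fold of 10.9 (7.66 to 14.97).

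**Figure D3:**
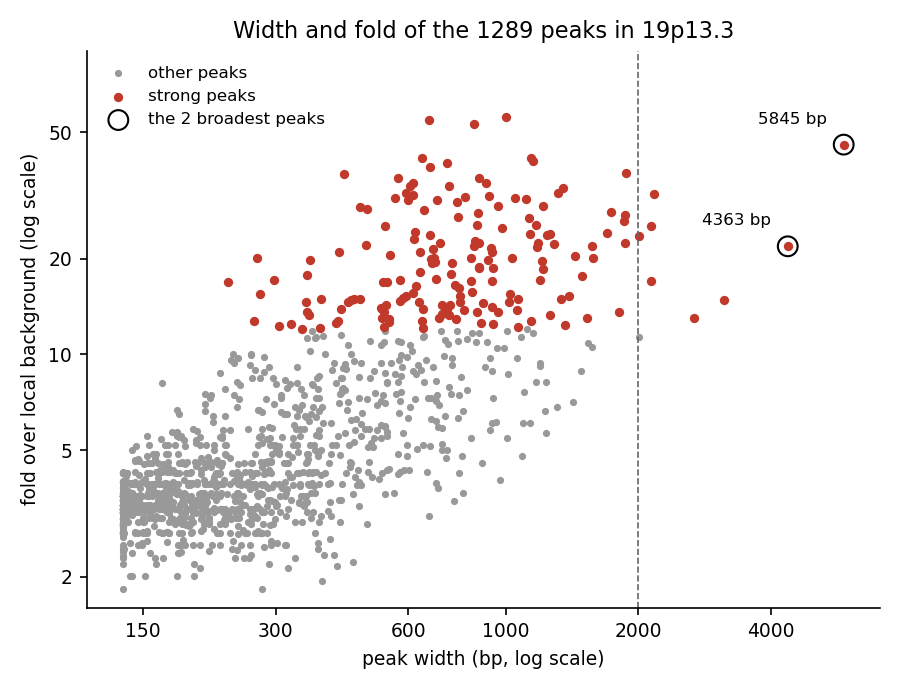
Each point is 1 of the 1289 peaks, with its width in bp against the authors' fold, both on log scales. Strong peaks are red, circles mark the 5845 bp and 4363 bp peaks, and the dashed line is at 2000 bp. The circled peaks stand apart in width, while the 3 highest folds, up to 55.7, belong to peaks of 668 to 1001 bp.

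Peaks lay close together. Neighbouring summits were a median of 2160 bp and at least 84 bp apart, and 361 of the 1288 distances were under 1 kb. The median was 4186.5 bp in the list and 3825.5 bp in the rest of chromosome 19. It was 1327 bp in 7p22.3, 1266 bp in 9q34.3 and 1669 bp in 11q13.1. Joining summits within 12500 bp of each other gave 137 clusters. Of these, 39 held at least 10 peaks and contained 955 of the 1289 peaks (74.1%) and 128 of the 169 strong ones (75.7%). Another 24 peaks stood alone, and 4 of these were strong. No summit lay before 267343, where the first peak, a strong one, had its summit. Between members, the widest distances without a summit were 83.8 kb, from 5453132 to 5536883, and 72.9 kb, from 6633370 to 6706318. The longest distance between neighbouring strong summits was 222.4 kb, from 5039063 to 5261481.

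Clusters of like size differed in their content of strong peaks. The largest cluster, at chr19:770318-957298, held 72 peaks, of which 10 were strong. The cluster at chr19:2455627-2648884 held 56 peaks, of which 13 were strong, the most of any cluster in the band. The cluster at chr19:4955213-5095907 held 58 peaks, of which 2 were strong, and its highest fold was 15.3. Median backgrounds in these 3 clusters were 2, 2.16 and 2.03 fragments, so the last 2 had nearly equal backgrounds and 23.2% against 3.45% strong peaks. Of the 39 clusters of at least 10 peaks, 6 held no strong peak. The largest of these 6, at chr19:368448-439465, held 21 peaks with a highest fold of 9.41.

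Most runs of strong peaks held 1 peak, where 13.11% of the band's peaks were strong. What a random order would give was not computed. In 32 of the 1288 pairs of neighbouring peaks both were strong, and the order of the peaks was not tested. Of 137 runs of strong peaks along the band, 111 consisted of 1 peak, 22 of 2 and 3 of 3. The longest run had 5, at chr19:2456617-2476926 over 20.3 kb, inside the cluster with the most strong peaks, and its highest fold was 38.7. The 5845 bp peak ended a run of 3 that began at 1241435. The median distance between neighbouring strong summits was 22.2 kb.

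Bands of at least 2 Mb, light or dark with Giemsa but without centromeric, variable and stalk bands, numbered 623. Among them, 19p13.3 held the largest number of strong peaks and ranked 3 by their density, with 24.5 per Mb. It ranked 16 by the density of all peaks, with 187 per Mb, and shared rank 3 by the number of broad peaks with 11q13.1 and 8q24.3. By the density of broad peaks it ranked 16, with 1.30 per Mb, against 3.67 in 9q34.3, 3.6 in 11q13.1 and 2.5 in 7p22.3. Broad peaks made up 0.698% of its peaks, against 0.940%, 1.29% and 0.643% in those bands, in the same order. These ranks describe 1 list, and the band, at 6.9 Mb, is longer than many others. The terminal bands 7p22.3 and 9q34.3 had more peaks per Mb, 389 and 391, but fewer strong ones per Mb, 14.6 and 18.9. Their strong shares were 3.77% (2.72 to 5.08) and 4.83% (3.80 to 6.05), and these intervals lie below that of 19p13.3, 11.3 to 15.1. Band 11q13.1, with 35.6 strong peaks per Mb, had a share of 12.8% (10.4 to 15.5), an interval that overlaps that of 19p13.3. The rest of chromosome 19 had 81.2 peaks per Mb, of which 17.4% (16.3 to 18.6) were strong, an interval that lies above that of 19p13.3. The share was 17.5% in the neighbouring band 19p13.2 and 18.1% in 19q13.32. These intervals cover counting error only and treat peaks as independent, which neighbouring peaks are not.

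The bands compared did not have the same background, and fold is a ratio to it. The median background was 2.03 fragments in 19p13.3 and 2.16 in the rest of chromosome 19, against 3.59 in 7p22.3, 3.78 in 9q34.3, 4.06 in 11q13.1 and 3.105 in the list. In 19p13.3, 315 peaks (24.4%) lay over the lowest background of the list, against 8.55% of the list, and 26 (2.02%) over more than 5 fragments, against 10.3%. Ranked by p, 10.8% (9.14 to 12.6) of the band's peaks were in the list's highest 10%, against 10.0% of the list. Ranked by pileup, from 59 fragments up, 9.93% (8.35 to 11.7) were, against 10.2% of the list. The band's excess of strong peaks by fold was therefore absent by pileup. In 11q13.1 the order was the opposite, with 12.8% by fold, 15.2% by p and 16.2% by pileup. The rest of chromosome 19, with a background close to that of the band, had 15.1% by p and 13.5% (12.49 to 14.6) by pileup, both above the band and the list. In 7p22.3 and 9q34.3 the shares by pileup, 5.33% and 6.24%, were still below that of 19p13.3. Strong peaks had a median fold of 18.8 and a median pileup of 69 in 19p13.3, and medians of 20.4 and 130 in 11q13.1.

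**Figure D4:**
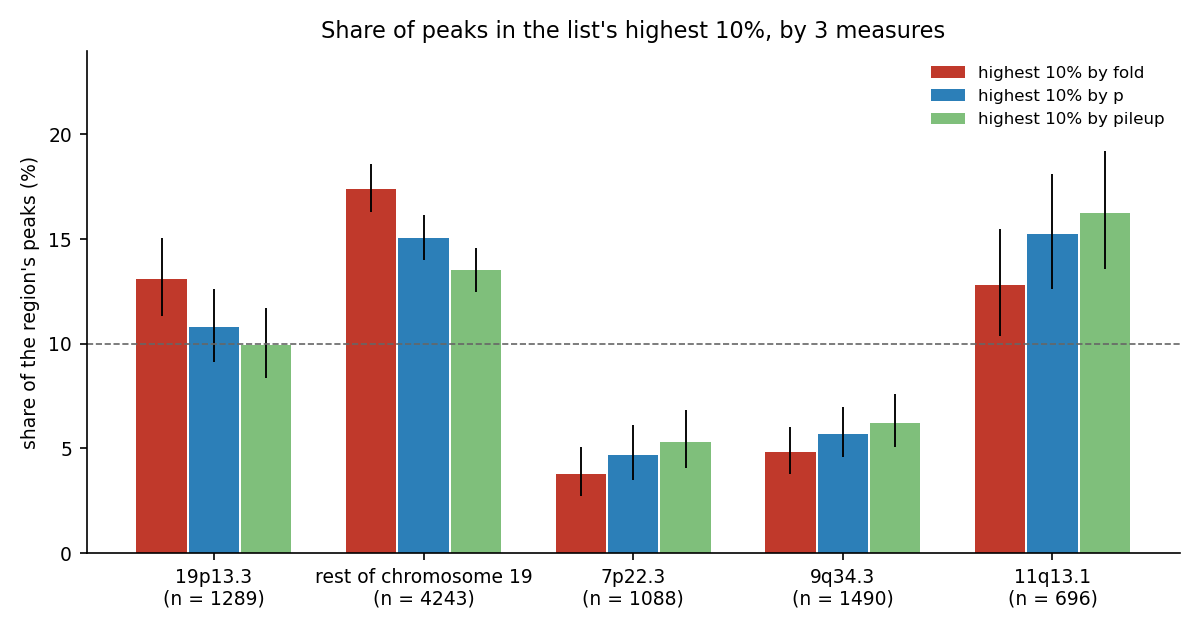
Bars give the share of each region's peaks that were in the list's highest 10% by fold, by p and by pileup, with exact binomial 95% intervals and the number of peaks under each region. The dashed line is the share by fold in the whole list, 10.0%. In 19p13.3 the bars fall from 13.11% by fold to 9.93% by pileup, and in 11q13.1 they rise from 12.8% to 16.2%.

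Grouped by their own background, the band's peaks departed from the rest of the list at middle values. Over backgrounds below 1.9 fragments, 10.7% (7.81 to 14.2) of 393 peaks in the band were strong, against 11.1% elsewhere. Over 1.9 to 2.1 fragments the values were 11.3% (8.13 to 15.2) of 336 and 12.1%. Over 2.1 to 2.5 fragments they were 19.1% (13.28 to 26.1) of 157 and 9.91%, and over 2.5 to 3.5 fragments 16.5% (12.2 to 21.6) of 260 and 8.19%. Above 3.5 fragments they were 11.2% (6.53 to 17.5) of 143 and 10.4%. At the rates of the rest of the list in these 5 groups, 10.6% of the band's peaks would be strong, against 13.11% observed. Backgrounds in the group above 3.5 fragments were not alike, reaching 10 in the band and 256 in the list. The groups were chosen after seeing the data, and the band was singled out with its density of strong peaks known. Strong peaks are themselves set by a ratio to the background. The difference between 10.6% and 13.11% was not tested, nor was any cause of it. Whether the background fragments came from the input is not known here.

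At the centromeric edge, no peak was near the limit of the interval. The last member was at chr19:6875881-6876091, 24.03 kb inside, with a fold of 4.56 (2.59 to 7.55), and the next peak outside was at chr19:6947850-6947984, 47.9 kb beyond, with a fold of 4.24 (2.36 to 7.14). The counting intervals of these weak peaks overlap widely.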

How the data were processed

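ELF5 ChIP-seq of T47D had 3 replicates and 1 input. The authors deposited 1 peak list on hg19, per the file headers, with a score, a fold (ratio), a −log10 p and a −log10 q per peak. The deposited score is the whole part of 10 times −log10 p in all 115384 rows, and the fold has no unit in the file. The depth per sample is unknown. For the aligner, caller, threshold, input use and pooling: not given in the sources used here. For each peak, a whole pileup and a background were sought for which the authors' fold and p follow from pileups scaled by 0.910, a Poisson tail and, in the fold, a pseudocount of 1. This matched 115384 peaks within 0.001, and 1 of the band's peaks had a second solution. The recovery was tested on simulated data. Intervals are exact (Poisson, or Clopper-Pearson binomial) at 95% and cover counting error only. Bands came from circlize 0.4.16. Values were computed in scipy 1.17.1, pandas 2.3.3 and numpy 2.4.6 under Python 3.11.15 and drawn with matplotlib 3.10.9. Peaks named are the 2 broadest, all others of at least 2000 bp, the 10 first by fold and by p, the edge peaks, and extreme windows, clusters and gaps. Other peaks named (the narrow strong one, the wide weak ones, those at the strong limit and within 25 kb of a broad peak) were chosen after their values were seen. The members and measures were chosen with earlier results of these data known. Genes, promoters and motifs were not analysed here, since no hg19 sequence or annotation was used.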

Additional observations from a re-analysis of the deposited data

How the results depend on the processing

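Of 25 alternative values, 16 moved, 1 changed direction and 8 did neither. A share or median counted as moved when outside the main value's 95% interval, a difference of shares if it moved by more than 1 arm of that interval, and a count if it changed by over 1.5 times. Ranking by pileup was added after seeing the data. The strong share of 13.11% was 6.59% for the highest 5% of folds and 26.5% for the highest 20%, as their construction implies, 10.8% for the highest 10% by p and 9.93% by pileup. Its difference from the list, 3.11 percentage points, was 6.44 for the highest 20%, 0.781 by p and -0.250 by pileup. The sign changed by pileup, but the interval of the band's share by pileup, 8.35 to 11.7, includes the list's 10.2%. The cause of the change was not tested. In the highest 50% of folds of the list the band held 798 peaks, with a median fold of 5.72 and a median width of 359 bp, and with q under 0.05 the median fold was 4.24. Peaks of at least 1500 bp numbered 21 and of at least 3000 bp 3, against 9 of at least 2000 bp. A strong peak was present in 85.5% of windows of 100 kb, 59.4% of 50 kb and 97.1% of 200 kb. Joining summits within 5 kb gave 396 clusters and within 25 kb 35, against 137. The telomeric minus centromeric difference in strong share was 2.52 percentage points at the midpoint and 2.76 between the outer parts of 3. No replicate could be left out. No paired analysis was possible because replicates are not separated in the list. Peaks that were not strong had a median pileup of 13, with a range from 7 to 84. Those near the median cannot be ranked against each other by fold.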
